A study of Mus musculus with 39 samples.

Results

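The genes described here make cholesterol and fatty acids. They are a set of 32 genes taken by symbol from a table of 30012 gene names, and all 32 were found there and had enough counts to be tested. Of these, 7 encode enzymes of the mevalonate route, 11 the enzymes from squalene to cholesterol, 4 regulators of sterol supply, 8 enzymes of fatty acid synthesis and 2 exporters of cholesterol. They were measured in mouse lung fibroblasts in culture that were given C1q, the recognition protein of the complement cascade. Within 24 h of the start of the C1q culture nearly every synthesis gene was lower than in untreated cells. From 24 h on, most of the sterol genes were lower at the highest C1q dose than at the lowest dose at the same time. Fewer of these dose differences were called at 24 and 48 h in some of the alternative fits. The gene for the cholesterol exporter Abca1 was higher than in untreated cells from 24 h on.

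Cells make cholesterol from acetyl-CoA through mevalonate, farnesyl diphosphate and squalene, and make fatty acids from the same acetyl-CoA by way of malonyl-CoA. Most genes of both routes are switched on by SREBP transcription factors, which are held in the endoplasmic reticulum by Insig proteins while sterol is plentiful and are released by proteolysis when it runs short. The liver X receptors work in the opposite sense: oxysterols activate them, and they switch on exporters such as Abca1. In the lung, some fibroblasts store neutral lipid and pass it to the epithelial cells that make surfactant.

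The cells came from the lungs of wild-type C57BL/6 mice, with no allele or transgene that differed between groups. The sources used here give neither the age nor the sex of the mice, nor the number pooled. Magnetic beads had removed cells bearing CD45, CD31, EpCAM, CD146 or Ter119, and the remaining cells were passaged into 24-well plates. All groups shared serum starvation for 24 h. The untreated group was collected at 0 h, and the 12 C1q groups received 1, 10 or 100 µg/ml for 2, 24, 48 or 72 h, with 3 libraries in each of the 13 groups (39 in total). These 39 hold no untreated group at a later time and none labelled as given the vehicle of the C1q. The serial numbers of the libraries skip a block of 3 after each of the 2, 24 and 48 h sets, and the labels used here do not say what those numbers stood for. Here time in culture and C1q therefore cannot be told apart in any comparison with untreated cells, and neither can C1q and whatever was dissolved with it in comparisons of doses. Whether the 3 libraries of a group came from different wells or mice is not stated in the labels. The p-values therefore reflect how libraries varied, which may be technical variation.

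Libraries of the 5′ ends of messenger RNA were sequenced to totals of 1806106 to 3012518 counts. Levels are given as CPM, the counts brought to one library size by TMM scaling, and differences are log2 ratios. Standard errors (±) were derived as the absolute log2 ratio divided by the square root of the F statistic of the test named next. A gene was called changed at an adjusted p under 0.05 in the quasi-likelihood test of edgeR, adjusted by Benjamini-Hochberg over the 14419 genes tested. Summed over 10 fibroblast marker genes, untreated libraries held 6248 to 7170 CPM. Markers of other cells were present too. The 16 macrophage and myeloid markers summed to 310.4 to 347 CPM in untreated libraries and 1084 to 1885 CPM at 72 h, none of them at 0 in a whole group. Over the 39 libraries Lyz2 held 36966 counts and the next gene of this list, C1qb, 5224, so these sums lean on Lyz2. In bulk RNA, fewer cells of a type and less RNA per cell cannot be told apart. At 24 h, the third 1 µg/ml library differed from both its replicates, with a chi-square per degree of freedom of 8.02 and 8.48 against 1.31 to 4.34 for all other replicate pairs outside that group.

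The promoters of 5 genes, from every role save the squalene and sterol arm, are printed to show the letters of motifs tied to SREBP proteins, with Abca1 as a gene that was higher. No liver X receptor element was searched. They are the 250 bases before a RefSeq start in GRCm38.p6, read 5′ to 3′ on the strand of the gene. A gene can have several starts. The Fasn window lies inside the annotated span of its gene, which ends at 120825166. The windows of Abca1 and Mvk overlap the spans of theirs, which end at 53159988 and begin at 114444264. Capitals mark 3 motifs found on either strand: a sterol response element (TCACNCCAC), the CCAAT box that NF-Y binds (CCAAT, or ATTGG on the other strand) and the E-box (CACGTG), which SREBP proteins can also bind. Hmgcs1 lies at chr13:119690101-119690350 on the plus strand, Mvk at chr5:114444019-114444268 on the plus strand and Insig1 at chr5:28071162-28071411 on the plus strand. Fasn lies at chr11:120824548-120824797 and Abca1 at chr4:53159896-53160145, both on the minus strand.
Hmgcs1: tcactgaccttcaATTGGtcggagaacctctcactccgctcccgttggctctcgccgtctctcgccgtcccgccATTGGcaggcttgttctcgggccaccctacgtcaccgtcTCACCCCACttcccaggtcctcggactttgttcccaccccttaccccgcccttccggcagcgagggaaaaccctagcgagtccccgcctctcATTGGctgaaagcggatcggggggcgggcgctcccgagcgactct
Mvk: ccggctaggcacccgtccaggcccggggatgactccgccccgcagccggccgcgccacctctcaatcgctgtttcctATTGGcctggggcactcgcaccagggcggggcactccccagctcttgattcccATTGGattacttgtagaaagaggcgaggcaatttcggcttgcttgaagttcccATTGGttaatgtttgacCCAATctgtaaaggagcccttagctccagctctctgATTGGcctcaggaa
Insig1: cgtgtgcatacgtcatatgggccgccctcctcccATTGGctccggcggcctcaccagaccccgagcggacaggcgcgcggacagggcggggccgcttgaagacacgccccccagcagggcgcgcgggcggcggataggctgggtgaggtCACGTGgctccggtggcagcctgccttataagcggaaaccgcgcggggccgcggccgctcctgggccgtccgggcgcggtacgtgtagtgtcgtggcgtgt
Fasn: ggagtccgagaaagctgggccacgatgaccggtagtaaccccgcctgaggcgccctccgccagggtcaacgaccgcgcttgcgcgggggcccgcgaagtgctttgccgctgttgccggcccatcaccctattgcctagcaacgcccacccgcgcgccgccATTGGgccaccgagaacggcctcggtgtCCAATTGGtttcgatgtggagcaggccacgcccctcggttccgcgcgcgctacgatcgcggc
Abca1: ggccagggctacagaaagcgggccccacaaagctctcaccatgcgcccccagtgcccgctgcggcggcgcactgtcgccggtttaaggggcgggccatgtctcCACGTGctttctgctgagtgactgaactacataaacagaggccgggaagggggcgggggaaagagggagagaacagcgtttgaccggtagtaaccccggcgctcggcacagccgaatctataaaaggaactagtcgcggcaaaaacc

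The Hmgcs1 sequence held the letters of the sterol response element, TCACCCCAC, from 137 to 129 bases before the start, and 3 CCAAT boxes. The Mvk sequence held 5 CCAAT boxes. The Fasn sequence held 3, of which a pair overlap on opposite strands. Abca1 had 1 E-box and no CCAAT box in this window. Entries were found for 24 of the 32 genes, and there was none for Fdps, Fdft1, Sqle, Stard4, Scd1, Scd2, Fads1 or Abcg1. A CCAAT box was present in 18 of the 24 (75.0%), against 38.1% of the 20916 genes with a promoter of that length. These 20916 include genes with too few counts to be tested here, whereas all 24 were tested. The E-box was present in 5 of 24 (20.8%), against 7.75% of the 20916, and the sterol response element in 1 of 24 (4.17%), against 1.28%. These matches describe letters and were not tested against the expression data.

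Summed over the 32 genes, the level stood at 8031 to 8489 CPM in untreated libraries and at 7941 to 9134 CPM in the 9 libraries at 2 h. By 24 h it was 4329 to 4424 CPM at 1 µg/ml and 3408 to 3596 CPM at 100 µg/ml. At 72 h it was 3540 to 3557 CPM at 1 µg/ml, 3516 to 3579 CPM at 10 µg/ml and 2827 to 3014 CPM at 100 µg/ml. The lipid genes thus kept their level for the first 2 h, and every library from 24 h onward lay far below every untreated one. The 1 and 10 µg/ml libraries overlapped at 24, 48 and 72 h, and those of 100 µg/ml lay below both at each of these times.

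**Figure D1:**
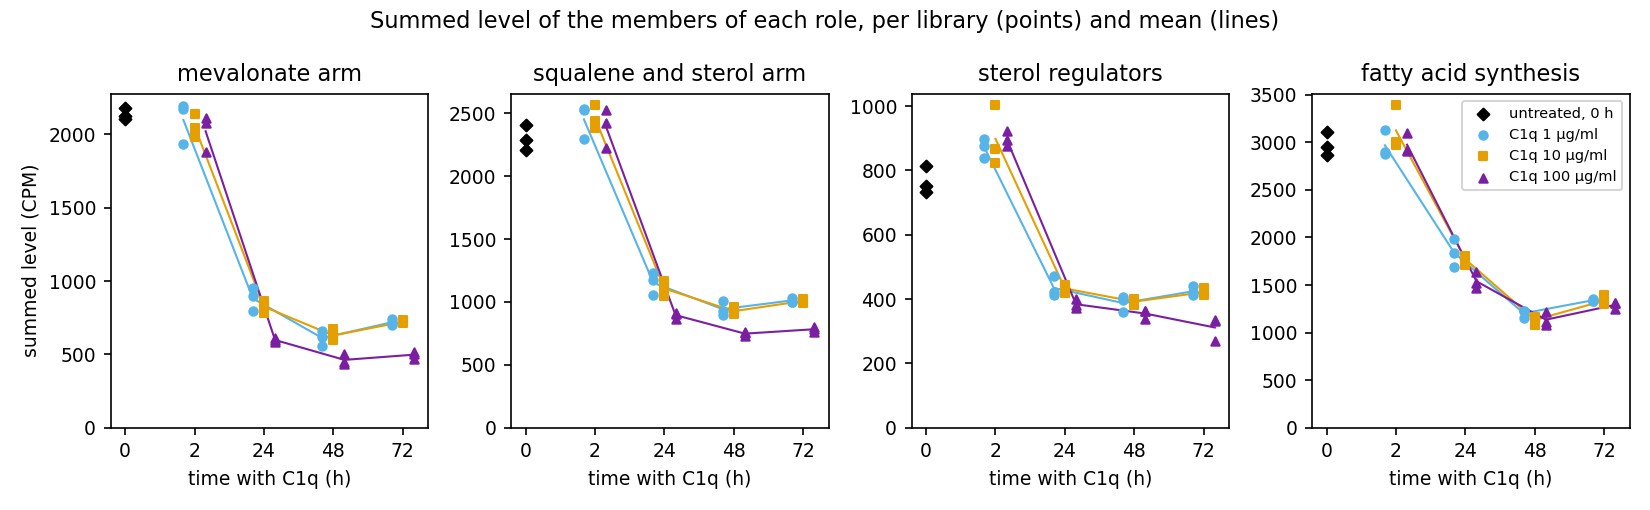
Summed level in CPM (vertical axis, from 0) of the genes of 4 roles against time with C1q in h (horizontal axis, times evenly spaced, untreated cells at 0). Points are the 39 libraries, coloured by dose, and lines join the means of 3. All 4 roles are lower from 24 h on, and the 100 µg/ml libraries lie lowest in the mevalonate panel, at 435 to 505 CPM at 48 h against 559 to 659 CPM at 1 µg/ml.

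At 24 h, 28 of the 32 genes were called at 1 µg/ml, 27 of them lower, where 25.2% of all tested genes were called and 14.3% were lower. At 10 µg/ml it was 29 genes, 28 of them lower, where 27.8% of all genes were called and 15.3% were lower. At 100 µg/ml it was 30 genes, 29 of them lower, where 36.7% were called and 19.9% were lower. The median difference from untreated of the 32 genes was -0.98, -1.03 and -1.30 at 1, 10 and 100 µg/ml, while the median of all tested genes was 0.01, 0.02 and 0.05. At 48 h, 31, 32 and 31 genes were called at the 3 doses, 30 lower at each, where 33.1%, 34.5% and 40% of all genes were called and 17.1%, 17.5% and 20.9% were lower. At 72 h it was 31, 31 and 30 genes, 29 lower at each, where 38.2%, 39.9% and 45.8% were called and 20.1%, 20.6% and 23.3% were lower. The 12 comparisons share the same 3 untreated libraries, so they are not independent of each other.

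**Figure D2:**
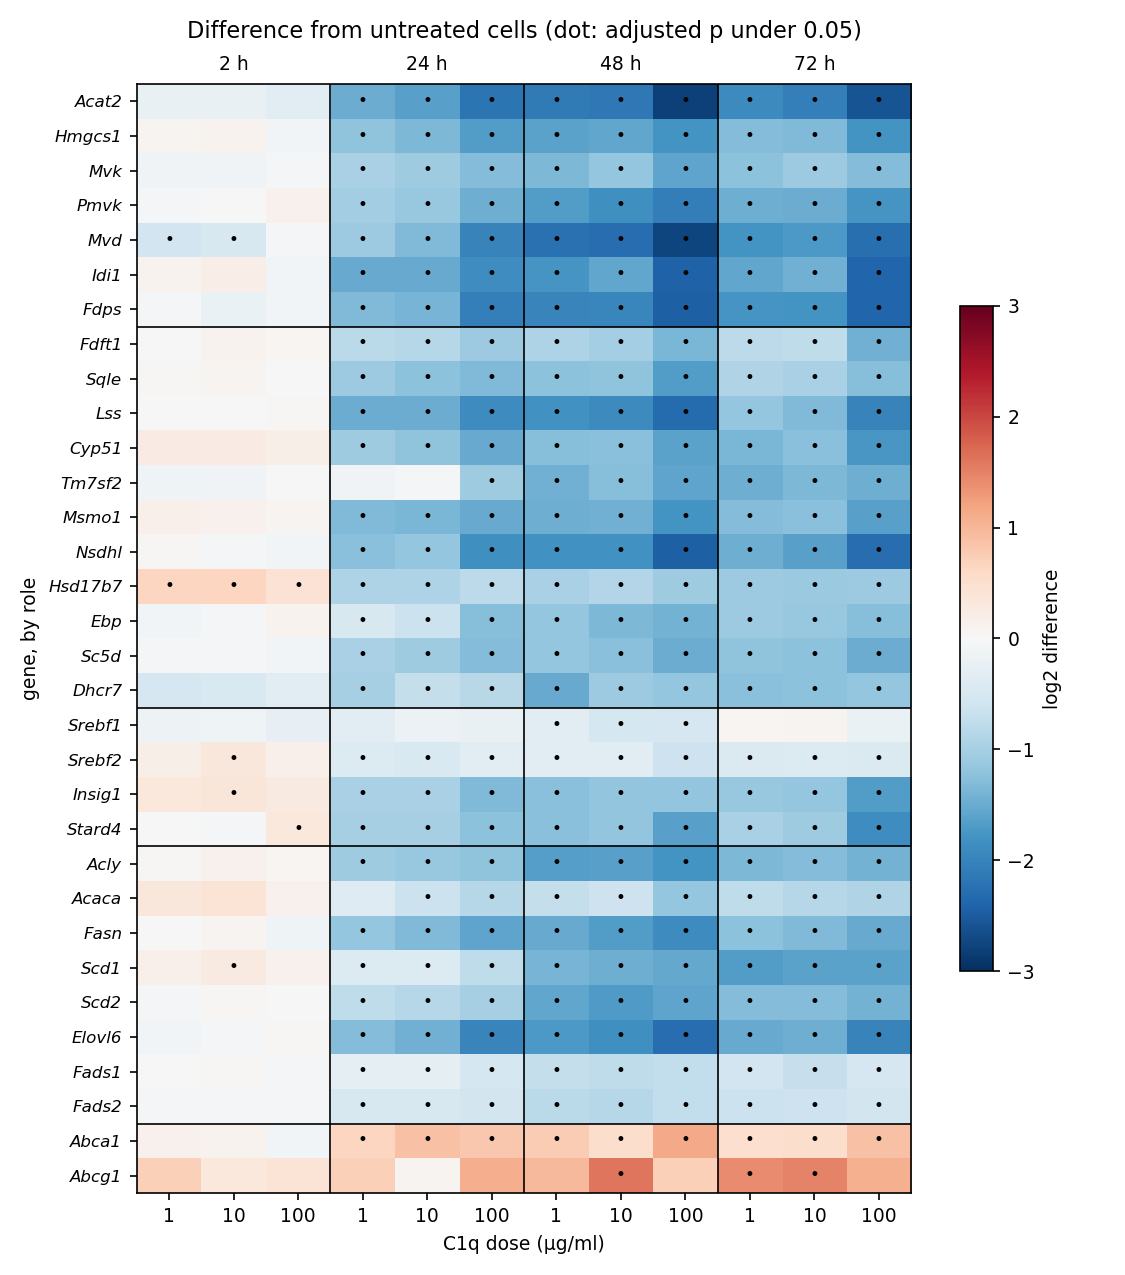
Log2 difference from untreated cells (colour, blue lower and red higher) of the 32 genes (rows, by role) in the 12 C1q groups (columns, dose in µg/ml within each time). A dot marks an adjusted p under 0.05. Blue fills the mevalonate, sterol and fatty acid rows from 24 h on, the Srebf1 row is pale, and the Abca1 row is red.

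The 2 h groups showed little of this. At 1 µg/ml, 2 of the 32 genes were called, where 6.15% of all genes were called. At 10 µg/ml it was 5, where 12.7% of all genes were called, and at 100 µg/ml 2, where 5.16% were called, so the shares of lipid genes were near those of all genes. Hsd17b7, the 3-keto-steroid reductase of the last steps to cholesterol, was called higher at all 3 doses. Its level was 112, 127 and 125 CPM in untreated libraries, 175, 223 and 174 CPM at 1 µg/ml, and 159, 172 and 157 CPM at 100 µg/ml. All 9 libraries at 2 h lay above all untreated ones, and the log2 differences were 0.65 ± 0.11, 0.63 ± 0.12 and 0.42 ± 0.12. The call at 100 µg/ml was lost without the first (0.37) or the third (0.44) untreated library or the second of 100 µg/ml (0.38). The same gene was called lower than untreated at every later time.

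Mvd, which makes isopentenyl diphosphate from mevalonate diphosphate, was lower than untreated at 2 h at 1 µg/ml (-0.58 ± 0.12) and 10 µg/ml (-0.48 ± 0.12) and was not called at 100 µg/ml. Its levels at 2 h were 85.1, 92.3 and 72 CPM at 1 µg/ml and 128, 115 and 121 CPM at 100 µg/ml, against 124, 110.5 and 135 CPM in untreated libraries. The groups of 1 and 100 µg/ml did not overlap. At 10 µg/ml, Insig1 (0.37 ± 0.10), Srebf2 (0.34 ± 0.10) and Scd1 (0.28 ± 0.09) were called higher. At 100 µg/ml, Stard4, which carries cholesterol through the cytosol, was called higher (0.31 ± 0.09). These small 2 h calls depended on single libraries. Insig1 was not called without the first or second untreated library or the third of 10 µg/ml (0.23 to 0.33). Scd1 was not called without the first or second untreated or the second or the third of 10 µg/ml (0.22 to 0.24). The call of Srebf2 was lost without the second or the third untreated or the first or the third of 10 µg/ml (0.25 to 0.34), and that of Mvd at 10 µg/ml without the second of 10 µg/ml (-0.36). Stard4 was not called without any 1 of the 6 libraries other than the second untreated (0.24 to 0.31). The count at 10 µg/ml fell to 3 without the first untreated library or the second of 10 µg/ml, and to 2 without the second untreated or the third of 10 µg/ml. The count at 100 µg/ml fell to 0 without the first or the third untreated library or the second of 100 µg/ml, and to 1 without the third of 100 µg/ml.

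In the mevalonate arm all 7 genes were called lower at all 3 doses at 24, 48 and 72 h. Fdps, the synthase of farnesyl diphosphate, measured 748, 815 and 737 CPM in untreated libraries. At 72 h it measured 225, 208 and 241 CPM at 1 µg/ml and 145, 153 and 143 CPM at 100 µg/ml. The 3 groups did not overlap, and the differences from untreated were -1.77 ± 0.10 and -2.38 ± 0.10. Hmgcs1, the cytosolic synthase of HMG-CoA, measured 555, 534 and 563 CPM before C1q. It measured 252, 243 and 219 CPM at 1 µg/ml and 170.2, 167 and 184 CPM at 100 µg/ml by 24 h. Again no library of one group reached the next, with differences from untreated of -1.21 ± 0.09 and -1.67 ± 0.09.

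The lowest values against untreated cells in this arm were those of Acat2, the thiolase that joins acetyl-CoA units, and of Mvd. Acat2 measured 169, 173 and 168 CPM in untreated libraries and 28.9, 19.1 and 25.4 CPM at 100 µg/ml and 48 h, a difference of -2.80 ± 0.13. Mvd measured 20.5, 19.1 and 15.4 CPM in that group, a difference of -2.75 ± 0.15. Reads of Acat2 may be shared with its near copy Acat3, so its own level is uncertain. Idi1, which isomerises isopentenyl diphosphate, differed from untreated by -2.44 ± 0.11 in the same group, with the same doubt from the pseudogene Idi1-ps1. The kinases Mvk and Pmvk, which phosphorylate mevalonate in succession, differed by -1.57 ± 0.12 and -2.06 ± 0.12.

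**Figure D3:**
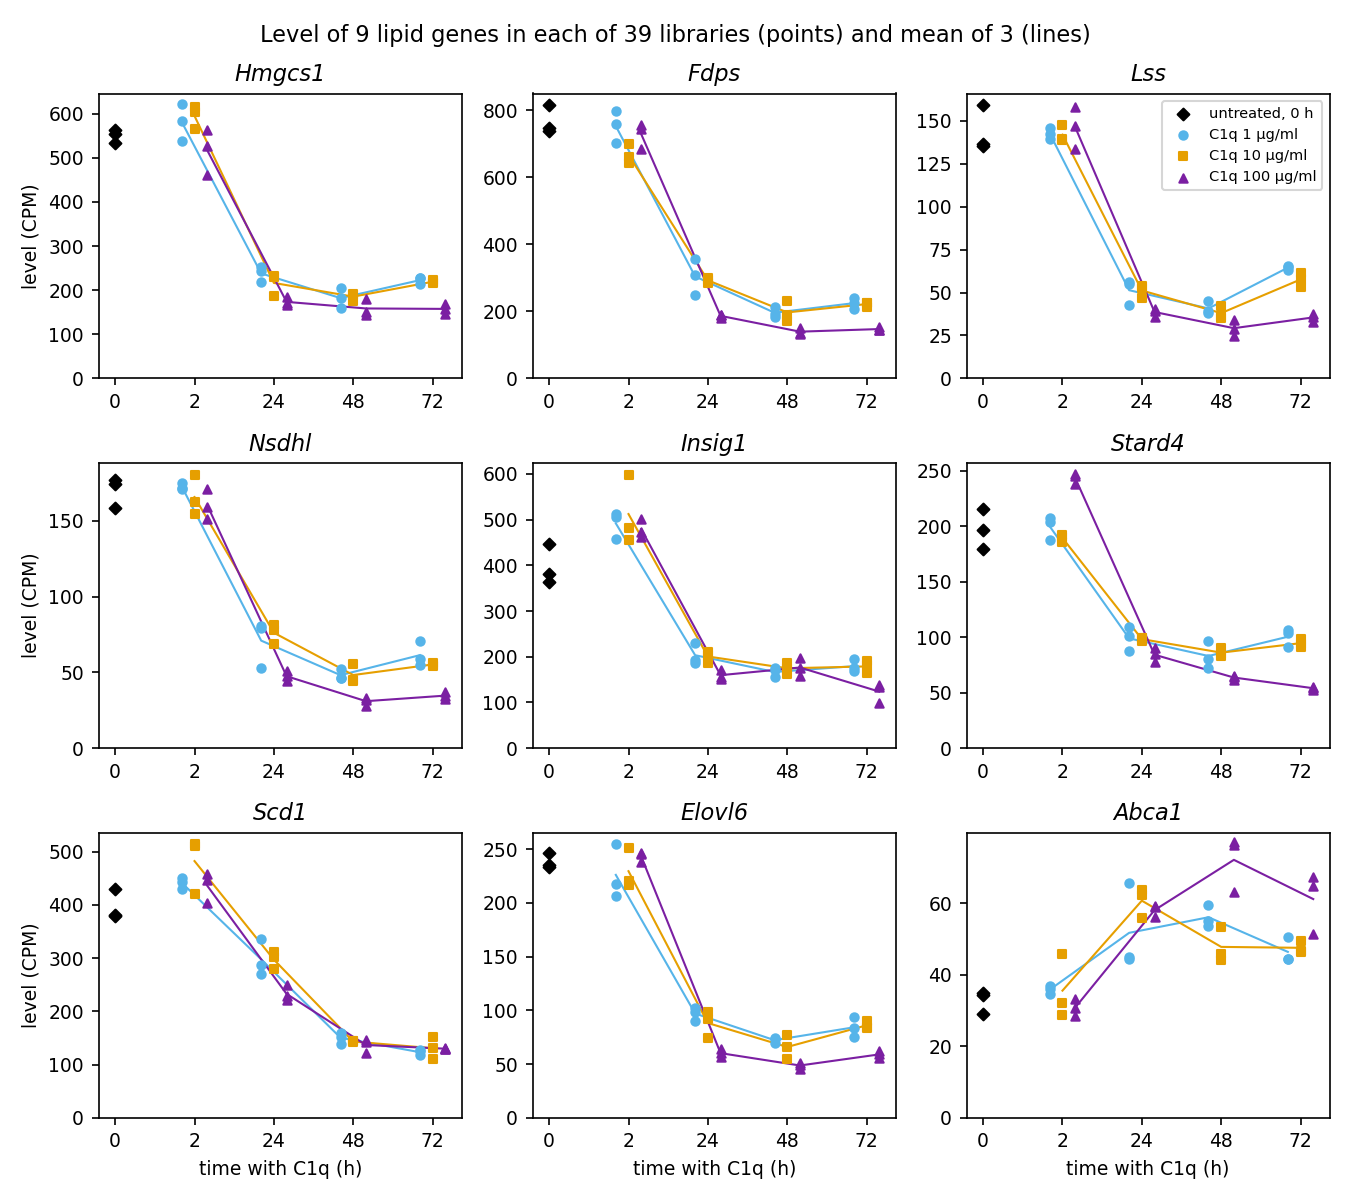
Level in CPM (vertical axes, from 0, separate per gene) of 9 lipid genes against time with C1q in h (evenly spaced, untreated cells at 0). Points are single libraries, coloured by dose, and lines join the means of 3. The 100 µg/ml points of Stard4 end at 52.7 to 55.0 CPM at 72 h, under 90.8 to 106.8 CPM at 1 µg/ml, whereas the 3 doses of Scd1 end together.

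In the squalene and sterol arm, 10 of 11 genes were called lower at 24 h at each of the lower doses, and all 11 at 100 µg/ml. All 11 were called lower at every dose at 48 and 72 h. Msmo1, the C4-methylsterol oxidase, measured 410.4, 428 and 431 CPM in untreated libraries and 194, 172 and 139 CPM at 1 µg/ml and 24 h (-1.33 ± 0.10). Sc5d, the lathosterol desaturase, went from 379, 428 and 455 CPM to 226, 221 and 199 CPM in the same groups (-0.97 ± 0.09). Cyp51, the lanosterol demethylase, went from 353, 350.5 and 377 CPM to 184, 162 and 168 CPM (-1.07 ± 0.09). In each of the 3 genes every untreated library lay above every library at 24 h. Of the calls in this arm, that of Dhcr7 at 10 µg/ml and 24 h was lost without the third untreated library (-0.61) or the third of 10 µg/ml (-0.53). The lowest values in this arm were those of Nsdhl, which removes carbon from the C4 position of sterols, at -2.45 ± 0.13, and of Lss, the lanosterol synthase, at -2.30 ± 0.12, both at 100 µg/ml and 48 h. Squalene synthase Fdft1 and squalene epoxidase Sqle differed from untreated by -1.36 ± 0.09 and -1.67 ± 0.10 in that group.

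Tm7sf2, a sterol C14 reductase, was the 1 gene of the arm not called lower at 24 h at the lower doses. Its level was 76.2, 64.2 and 83.9 CPM in untreated libraries, 74.5, 72.3 and 63.1 CPM at 1 µg/ml and 24 h, and 73.8, 70.0 and 71.2 CPM at 10 µg/ml and 24 h. At 100 µg/ml and 24 h it was 35.2, 39.9 and 32 CPM, below every library of those 3 groups, with a difference from untreated of -1.07 ± 0.12. By 48 h all doses had reached this lower level, with 24.6, 33.9 and 25.2 CPM at 1 µg/ml and 27.3, 22.2 and 25.9 CPM at 100 µg/ml, and the groups overlapped. Ebp, the sterol isomerase that also binds emopamil, followed a similar course. It measured 154, 176 and 178 CPM untreated, 138, 115 and 109 CPM at 1 µg/ml and 24 h, and 63, 72 and 72.1 CPM at 100 µg/ml and 24 h. At 72 h its 1 µg/ml libraries held 82.7, 78.6 and 75.3 CPM and its 100 µg/ml libraries 66.9, 74 and 69 CPM, so the gap of 24 h had narrowed and the difference between doses was not called. Dhcr7, the last reductase of the route, had few counts, with 28.5, 29.5 and 37 CPM untreated and 13.7, 13.2 and 15.4 CPM at 100 µg/ml and 72 h (-1.17 ± 0.23).

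Among the regulators, the genes of the 2 SREBP factors moved least. Srebf1, whose products favour fatty acid genes, measured 66.9, 57.4 and 58.8 CPM in untreated libraries and 65.6, 60.8 and 64.1 CPM at 1 µg/ml and 72 h, and these overlapped. It was called lower at 48 h alone, by -0.32 ± 0.12, -0.52 ± 0.13 and -0.51 ± 0.13 at 1, 10 and 100 µg/ml. At 1 µg/ml that call was lost without the first untreated library (-0.28) or the first (-0.29) or the third (-0.28) of 1 µg/ml. Srebf2, whose product favours cholesterol genes, measured 122, 95.8 and 111 CPM untreated and 73.5, 86.1 and 82.9 CPM at 100 µg/ml and 72 h. It was called lower in all 9 groups from 24 h on, with differences between -0.61 and -0.31. Without the first untreated library it was not called at 100 µg/ml and 24 h (-0.25) or at 1 or 10 µg/ml and 48 h (-0.26 and -0.26). Nor was it without the first library of 100 µg/ml at 24 h (-0.25), the 48 h libraries 1 or 2 of 1 µg/ml (-0.28 and -0.28) or library 1 of 10 µg/ml (-0.25). The log2 differences of both genes were thus smaller in size than the median of the 32 genes in each of these groups.

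Insig1 and Stard4, both known SREBP targets, fell further. Insig1, which retains the SREBP complex in the endoplasmic reticulum, measured 364, 382 and 446 CPM untreated, 175, 195 and 168 CPM at 1 µg/ml and 72 h, and 99.3, 138 and 134 CPM at 100 µg/ml and 72 h. The 3 groups were separate, and the last differed from untreated by -1.68 ± 0.11. Stard4 measured 179, 216 and 197 CPM untreated, 90.8, 107 and 103 CPM at 1 µg/ml and 72 h, and 52.7, 54.1 and 55 CPM at 100 µg/ml and 72 h. These 3 groups were separate as well, and the 100 µg/ml group differed from untreated by -1.87 ± 0.10.

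In fatty acid synthesis, 7 of 8 genes were called lower at 24 h at 1 µg/ml and all 8 at the other doses, and all 8 at every dose at 48 and 72 h. The calls of Fads1 at 24 h were lost without the first or the third untreated library, for the 1 µg/ml group (-0.25, -0.26) as for the 10 µg/ml group (-0.24, -0.25). They were also lost without library 1 of the dose itself (-0.18 at 1 µg/ml and -0.25 at 10 µg/ml). Acaca lost its call without the first untreated library at 10 µg/ml and 24 h (-0.51) and at 1 and 10 µg/ml and 48 h (-0.60 and -0.52). It also lost each of these without library 2 of the C1q group (-0.51, -0.60 and -0.49).

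Scd2, a stearoyl-CoA desaturase, measured 1104, 1083 and 1145 CPM untreated, 614, 642 and 706 CPM at 1 µg/ml and 24 h, and 388, 364 and 372 CPM at 1 µg/ml and 48 h. Its paralog Scd1 measured 379, 381 and 430.4 CPM untreated, 286, 270.3 and 337 CPM at 24 h and 153, 138 and 160.2 CPM at 48 h at the same dose. For both the later group lay wholly below the earlier one. Averaged over doses, Scd1 differed between 48 and 24 h by -0.93 ± 0.06 and between 24 and 2 h by -0.72 ± 0.05, and reads of Scd1 and Scd2 may be partly shared.

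Fasn, the fatty acid synthase, measured 278, 265 and 293 CPM untreated and 73.6, 65.8 and 85.7 CPM at 100 µg/ml and 48 h (-1.90 ± 0.12). Acly, which supplies cytosolic acetyl-CoA from citrate, differed from untreated by -1.80 ± 0.10 in that group, and Acaca, the acetyl-CoA carboxylase, by -1.15 ± 0.24. Elovl6, which elongates palmitate, measured 235, 234 and 246 CPM untreated and 49.4, 50.8 and 45.8 CPM at 100 µg/ml and 48 h, a difference of -2.29 ± 0.11. The desaturases of polyunsaturated fatty acids, Fads1 and Fads2, had smaller differences, of -0.74 ± 0.10 and -0.75 ± 0.10. Elovl6 had the lowest value of the 8 genes in this group and Fads1 the one nearest to 0.

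Of the exporters, Abca1, which loads cholesterol onto apolipoprotein particles, was called higher in all 9 groups from 24 h on. It measured 34.5, 28.9 and 34.9 CPM untreated, 45.1, 44.5 and 65.6 CPM at 1 µg/ml and 24 h, and 77.3, 63 and 76.2 CPM at 100 µg/ml and 48 h. Each of these later libraries lay above each untreated one, and the differences from untreated ran from 0.49 ± 0.15 to 1.13 ± 0.14. The call at 1 µg/ml and 72 h was lost without the second untreated library (0.40), and that at 10 µg/ml and 48 h without the second of 10 µg/ml (0.40). Abcg1, which exports cholesterol to mature HDL, had very few counts, with 2.00, 1.58 and 0.85 CPM in untreated libraries. It was called higher in 3 groups, at 10 µg/ml and 48 h (1.60 ± 0.52) and, at 72 h, at the 2 lower doses (1.43 ± 0.53 and 1.49 ± 0.52), and in no group of 100 µg/ml. All 3 calls were lost without the third untreated library (1.27, 1.12 and 1.17). The 48 h call was also lost without library 1 of 10 µg/ml (1.33). The 72 h call at 1 µg/ml was also lost without the second untreated library (1.44) or library 2 of 1 µg/ml (1.15). The 72 h call at 10 µg/ml was also lost without library 3 of 10 µg/ml (1.17).

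Doses were then compared at equal time, which sets aside the untreated libraries and the time in culture. Between 100 and 1 µg/ml at 24 h, 19 of the 32 genes were lower and 0 higher, where 11% of all genes were called and 7.21% were called lower. At 48 h it was 13 lower, where 10.3% were called and 6.44% lower, and at 72 h 15 lower, where 11.5% were called and 6.51% lower. The median difference of the 32 genes was -0.35, -0.31 and -0.29 at 24, 48 and 72 h, against 0.03, -0.01 and 0.00 for all tested genes. At 2 h 1 gene was called, Mvd, which was higher at 100 than at 1 µg/ml (0.55 ± 0.12), where 3.22% of all genes were called. No gene of the set was called higher in the 100 µg/ml group at 24, 48 or 72 h. The counts at 24 and 48 h depend on which libraries are used. Of the column names, 9 spell the experiment's name another way. At 24 h these are all those of 10 and 100 µg/ml but only the third of 1 µg/ml. At 48 h they are the first and second of 1 µg/ml alone. Dose and spelling are thus largely aligned at these times and cannot be fully told apart. No untreated or 2 h column carries the other spelling. Comparisons of 24 h with untreated cells or with 2 h are thus largely aligned with spelling too. Those of 48 h with 24 h are aligned with it in part. What the spelling stands for is not stated in the labels. With the libraries of 1 column-name spelling alone, which leaves a single 1 µg/ml library at each time that is assumed to vary like the others, 7 and 5 genes were called. At 24 h the library left is the third, which differed from both its replicates. Of the 32 genes, 29 and 24 were then below 0, with medians of -0.33 and -0.30. Without the second or the third 1 µg/ml library, or the second of 100 µg/ml, 8 genes were called at 48 h. With only the libraries of both groups in the fit, 10 genes were called at 24 h.

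**Figure D4:**
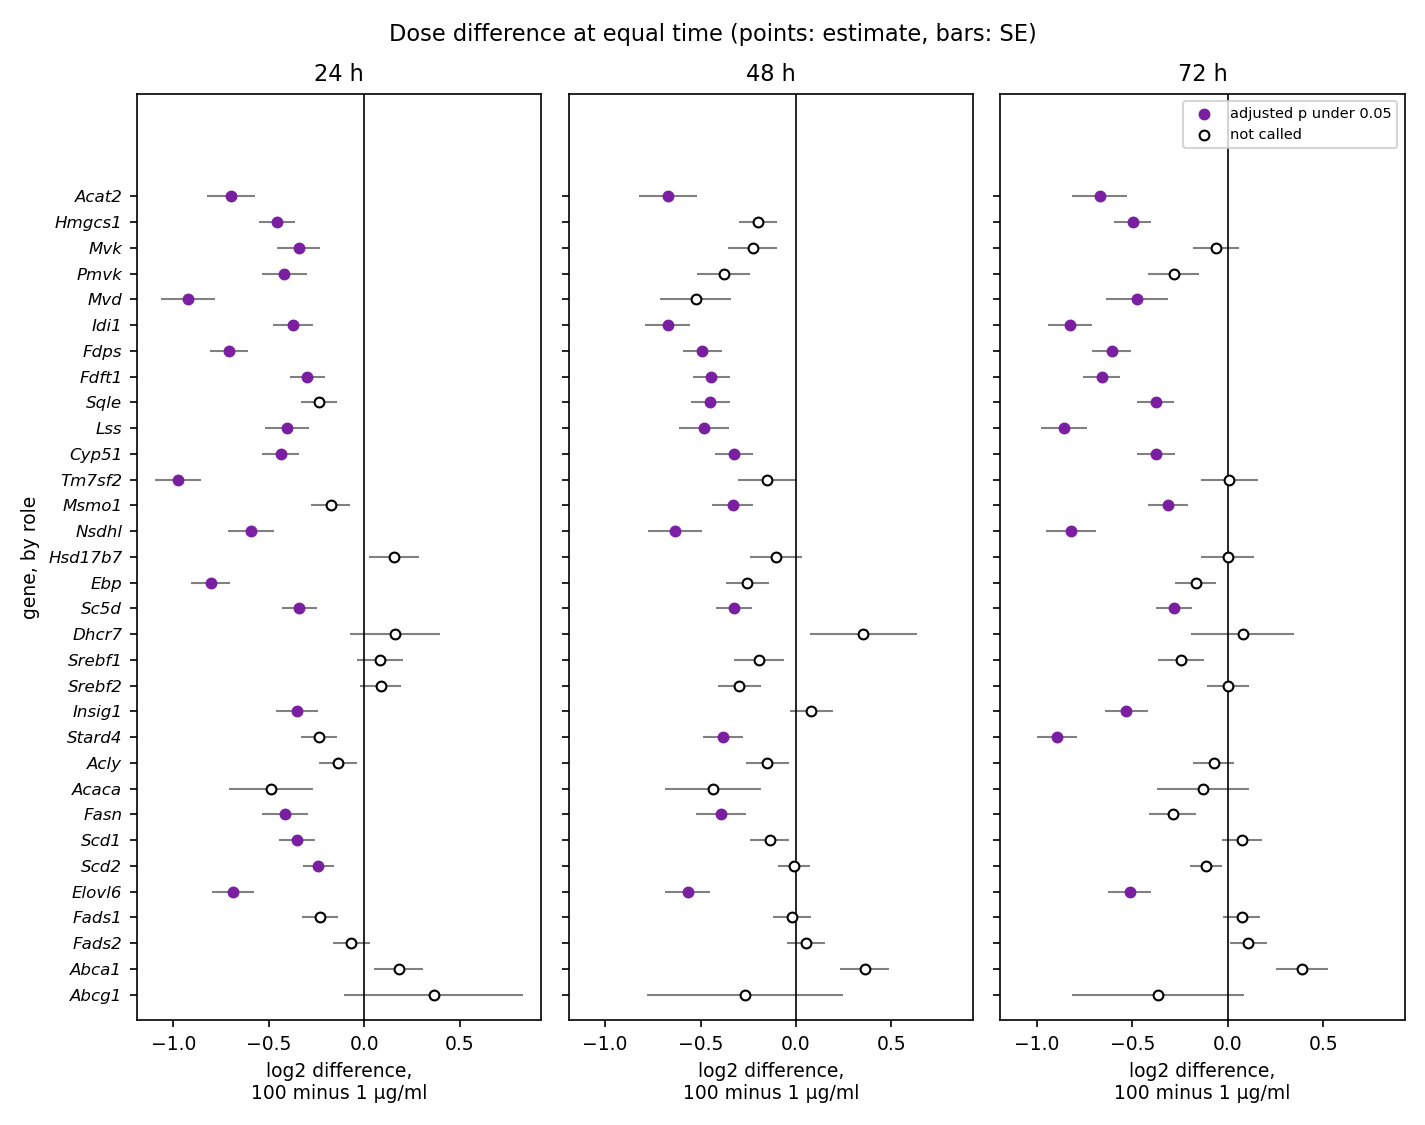
Log2 difference between 100 and 1 µg/ml (horizontal axis) for each of the 32 genes (rows, by role) at 24, 48 and 72 h (panels). Points are estimates, filled where the adjusted p was under 0.05, and bars are standard errors. Filled points lie left of 0 throughout, and they thin out towards 72 h among the fatty acid genes, where Elovl6 alone is filled.

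Between 10 and 1 µg/ml, edgeR's quasi-likelihood test called 0 of the 32 genes at 2, 24, 48 and 72 h, where 0.839%, 0.0485%, 0.208% and 0% of all genes were called. None of the 32 had an unadjusted p under 0.05 at any of these times, and DESeq2 called 0 as well. The differences at 24 h lay between -0.64 and 0.28 with a median standard error of 0.11, and at 72 h between -0.16 and 0.14. A difference between 1 and 10 µg/ml was thus not detectable in these genes with 3 libraries a group.

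By role, each of the 7 mevalonate genes was lower at 100 than at 1 µg/ml at 24 h, with a median of -0.46, as were 7 of the 11 sterol arm genes, with a median of -0.34. In the fatty acid group 4 of 8 were lower, with a median of -0.30. Several of these calls rested on single libraries. That of Mvk was lost without any 1 of the 6 libraries other than the first of 100 µg/ml (-0.39 to -0.26). Pmvk lost its call without the first of 1 µg/ml (-0.39) or the third of 100 µg/ml (-0.35), and Sc5d without the first of 1 µg/ml (-0.30). Among the fatty acid genes, Scd2 lost it without the second or the third of 1 µg/ml or the first or second of 100 µg/ml (-0.25 to -0.20). Fasn lost it without the second of 1 µg/ml (-0.38) or the first of 100 µg/ml (-0.36), and Scd1 without the third of 1 µg/ml (-0.27).

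At 48 h, Msmo1 lost its call without any 1 of the 6 libraries other than the first of 1 µg/ml (-0.37 to -0.23), and Fasn without any other than the third of 100 µg/ml (-0.42 to -0.30). Cyp51 lost it without the second or the third library of either dose (-0.33 to -0.25). Sc5d lost it without the second or the third of 1 µg/ml or the first or second of 100 µg/ml (-0.32 to -0.29). Lss lost it without the third of 1 µg/ml or the first or second of 100 µg/ml (-0.46 to -0.37), and Acat2 without the second of 100 µg/ml (-0.51).

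At 72 h, 5 of 7 mevalonate genes and 7 of 11 sterol genes were lower, with medians of -0.50 and -0.31. Msmo1 was not called without any 1 of the 6 libraries (-0.33 to -0.30). Sc5d was not called without the first or second of 1 µg/ml or the first or the third of 100 µg/ml (-0.27 to -0.23). Mvd was not without the second of 1 µg/ml (-0.32) or the first (-0.30) or second (-0.52) of 100 µg/ml, nor Cyp51 without the second of 100 µg/ml (-0.33). Only Elovl6 of the 8 fatty acid genes was called then (-0.51 ± 0.11), and the median of that group was -0.09. Fads2, for example, measured 283, 283 and 282 CPM at 1 µg/ml and 290.4, 312 and 313 CPM at 100 µg/ml at that time, with the higher dose slightly above and no call. Whether the fatty acid and sterol genes differ from each other in their response to dose was not tested.

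The dose difference changed with time for 13 of the 32 genes, by a joint test of the 100 against 1 µg/ml difference at the 4 times, where 6.78% of all genes were called. The joint test takes in 2 h, so the time points were also set against each other directly. Between 24 and 2 h the dose difference changed in 8 of the 32 genes, where 4.89% of all genes were called, and was lower at 24 h in all 8. Of these, Acat2 lost its call without the third of 1 µg/ml or the first of 100 µg/ml at 2 h, or the second of either dose at 24 h (-0.56 to -0.51). Pmvk lost it without the third of 100 µg/ml at 24 h (-0.53), and Stard4 without the second of 1 µg/ml then (-0.45). Between 48 and 24 h it changed in 1, Tm7sf2 (0.82 ± 0.20), where 0.583% of all genes were called. That call was lost without any 1 of 7 of the 12 libraries: the first or second of 1 µg/ml or the third of 100 µg/ml at 24 h, or the first or the third of either dose at 48 h (0.74 to 0.80). Between 72 and 48 h edgeR's test called 0 of the 32 and 0% of all genes. Of the 32, 4 had an unadjusted p under 0.05 there, and DESeq2 called 0. Between 72 and 24 h it changed in 3 genes, where 1.49% of all genes were called. It was further below 0 at 72 h in Stard4 (-0.66 ± 0.14) and nearer to 0 in Tm7sf2 (0.98 ± 0.19) and Ebp (0.64 ± 0.15). The call of Ebp was lost without the first of 1 µg/ml (0.53) or of 100 µg/ml (0.58) at 24 h or the second of 100 µg/ml at 72 h (0.60). With only the groups compared in the fit, Tm7sf2 alone was called, and Stard4 was at -0.66. In Mvd the difference was 0.55 ± 0.12 at 2 h and -0.92 ± 0.14 at 24 h (edgeR adjusted p of the joint test = 9.35e-07). In Tm7sf2 and Ebp it was -0.97 ± 0.12 and -0.81 ± 0.10 at 24 h, and neither gene was called at 48 or 72 h. Here the 1 µg/ml libraries came near the 24 h level of 100 µg/ml only by 48 h. In Elovl6 it was -0.69 ± 0.11, -0.57 ± 0.12 and -0.51 ± 0.11 at 24, 48 and 72 h.

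In 6 of the 13 genes the estimated dose difference was lowest at 72 h, and for Stard4 alone of these was the change from 24 h called. In Stard4 the difference was 0.29 ± 0.09 at 2 h, which was not called, -0.38 ± 0.10 at 48 h and -0.90 ± 0.10 at 72 h (edgeR adjusted p of the joint test = 4.05e-07). The 48 h call was lost without the second of 1 µg/ml (-0.26) or the first of 100 µg/ml (-0.34). In Lss it was -0.41 ± 0.12 at 24 h and -0.86 ± 0.12 at 72 h. The Lss libraries held 39, 38.4 and 44.9 CPM at 1 µg/ml and 28.9, 24.9 and 33.9 CPM at 100 µg/ml at 48 h. At 72 h they held 64.8, 65.4 and 63.3 CPM and 32.9, 35.8 and 37.7 CPM. The 1 µg/ml group stood higher at 72 h than at 48 h, and the 100 µg/ml group did not overlap it at either time. Idi1, Fdft1, Nsdhl and Insig1 had estimates of -0.83 ± 0.11, -0.66 ± 0.10, -0.82 ± 0.13 and -0.53 ± 0.11 at 72 h against -0.37 ± 0.11, -0.30 ± 0.09, -0.59 ± 0.12 and -0.35 ± 0.11 at 24 h. Insig1 did not deepen steadily: at 48 h it measured 155, 170.4 and 174 CPM at 1 µg/ml and 197, 158 and 175 CPM at 100 µg/ml, and the groups overlapped. The change from 24 to 72 h was not called in Lss (-0.45 ± 0.17), Idi1 (-0.45 ± 0.16), Fdft1 (-0.36 ± 0.13), Nsdhl (-0.23 ± 0.18) or Insig1 (-0.18 ± 0.16). With each library left out in turn, none of these 6 genes lost its 72 h call, but some lost the 24 h call. Lss lost it without the second of 1 µg/ml (-0.33) or the first of 100 µg/ml (-0.37), and Idi1 without the first of 1 µg/ml (-0.29). Fdft1 lost it without the first or second library of either dose (-0.25 to -0.30), and Insig1 without the second of 1 µg/ml (-0.25) or the second (-0.33) or the third (-0.34) of 100 µg/ml.

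Averaged over the 3 doses, most of the fall took place between 2 and 24 h. Of the 32 genes, 29 were lower and 1, Abca1, was higher (0.73 ± 0.08) at 24 h than at 2 h, with a median of -1.14, where 57.9% of all genes were called and 28.6% were called lower. Between 24 and 48 h 25 genes were lower, with a median of -0.29, where 24.9% were called and 12.1% were called lower. With 1 of the 18 libraries left out, the call was lost in 10 cases for Dhcr7, 8 for Msmo1 and 6 each for Sqle and Srebf1. Between 48 and 72 h, 12 genes were higher and 1, Scd1, was lower (-0.16 ± 0.06, lost without any 1 of 15 of the 18 libraries), with a median of 0.15, where 16.7% were called and 8.38% were called higher. The 12 included Lss (0.52 ± 0.07), Mvd (0.49 ± 0.10), Srebf1 (0.43 ± 0.07), Fasn (0.35 ± 0.07), Acly (0.34 ± 0.06) and Sqle (0.31 ± 0.06). The rise of Nsdhl was lost in 7 such cases and that of Hmgcs1 in 3. The rises were partial: at 72 h the other 11 besides Srebf1 were still lower than untreated at all 3 doses.

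Other genes of sterol and fatty acid biology were compared between 24 and 2 h over the doses, where 57.9% of all tested genes were called, 29.3% higher and 28.6% lower. Of 23 tested genes of fatty acid activation, elongation and glycerolipid synthesis, 17 were lower and 2 higher, with a median of -0.47. Among them were the acyl-CoA synthetases Acsl4 (-1.24 ± 0.06) and Acsl3 (-1.04 ± 0.08), the sterol-regulated membrane protein Tmem97 (-1.16 ± 0.08) and Hsd17b12 (-1.02 ± 0.06), the 3-ketoacyl-CoA reductase of elongation. Of 21 tested genes of fatty acid oxidation, 11 were higher and 2 lower, with a median of 0.21. The share called was near that of all genes, and the share called higher was above it. Among the higher were Cpt2 (1.24 ± 0.08), the inner carnitine palmitoyltransferase, and Acads (0.63 ± 0.08), the short-chain acyl-CoA dehydrogenase. The synthesis and oxidation genes thus had medians of opposite sign over this interval, beside 0.05 for all tested genes.

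Of 7 tested liver X receptor target genes outside the set, 5 were higher and 1 lower at 24 h than at 2 h, with a median of 0.84. Pltp, the phospholipid transfer protein, was higher by 1.05 ± 0.06, Abca7 by 1.00 ± 0.13, Smpdl3a by 0.96 ± 0.08 and Tmem86a by 0.84 ± 0.11. The receptor gene Nr1h3 was higher by 0.56 ± 0.08. It belongs to a list of 11 genes of SREBP processing and sterol sensing, of which 6 were higher and 1 was lower. The share called was near that of all genes, while the share called higher was above it. In that list Scap, the escort of SREBP proteins, was higher at 100 than at 1 µg/ml at 24 h (0.74 ± 0.17), as was the ubiquitin ligase gene Rnf139 (0.53 ± 0.15), and none was lower. In that dose comparison 11% of all tested genes were called. Among 16 genes of sterol traffic, storage and oxidation, 6 were higher and 3 lower at 24 h than at 2 h, which is near the share of all genes. They included Ch25h, the cholesterol 25-hydroxylase (-1.25 ± 0.10), Scarb1, the HDL receptor (-0.83 ± 0.08), and Cyp27a1, the sterol 27-hydroxylase (0.84 ± 0.14). Of 13 genes of the isoprenoid branches, which draw on farnesyl diphosphate, 7 were lower and 2 higher, with a median of -0.20.

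Lipid storage and uptake genes, which mark lipofibroblasts, had no common direction between 2 and 24 h, with 3 of 10 tested genes higher and 3 lower, near the shares of all genes in each direction. Lipe, the hormone-sensitive lipase, was higher by 1.32 ± 0.16, and the fatty acid binding protein gene Fabp4 differed by -0.97 ± 0.17. At 72 h Fabp4 differed by -2.03 ± 0.30, Fabp5 by -0.97 ± 0.14 and the fatty acid receptor gene Cd36 by -0.63 ± 0.14 between 100 and 1 µg/ml. Macrophages also express these 3 genes. In the same comparison 8 of the 16 macrophage and myeloid markers were lower and 0 higher, where 6.51% of all genes were called lower. The part of macrophages in the differences of these 3 genes was not tested.

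Over the 39 libraries, the standardised log2 levels of the 18 mevalonate and sterol arm genes followed each other closely. Pearson's r of each gene with the mean of the others was highest in Fdps (0.992) and lowest in Dhcr7 (0.728), which had few counts. Of the other genes of the set, Elovl6 (0.985) and Acly (0.973) had values among those of the sterol genes, Srebf1 had 0.308 and Abca1 -0.863. Outside the set, the 10 genes most like the sterol mean by the same measure included Acat3, Rdh11, H2az1, Tubb5, Cxcl14, Ran, Gapdh, Idi1-ps1 and Hsp90ab1, with r from 0.984 to 0.971. Acat3 and Idi1-ps1 are near copies of genes in the set and may share their reads. The 10 least like it included Cygb, Clec3b, Ccpg1, Cped1, Serping1, Nkain4, Gsn, Lrp4 and Mamdc2, with r from -0.962 to -0.944. The libraries share their time courses, so these values describe a common time pattern and carry no test.

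Several marker lists moved over the same times. Of all tested genes, 29.3% were called higher and 28.6% lower at 24 h than at 2 h. Between 100 and 1 µg/ml, 11%, 10.3% and 11.5% of all genes were called at 24, 48 and 72 h. Those called lower were 7.21%, 6.44% and 6.51%. All 22 tested cell cycle genes were lower at 24 h than at 2 h, and their sum went from 2280 to 2470 CPM in untreated libraries to 393 to 537 CPM at 72 h. Between 100 and 1 µg/ml, 3, 15 and 3 of the 22 were lower at 24, 48 and 72 h and 0 higher. Of the 16 macrophage and myeloid markers, 11 were higher and 0 lower at 24 h than at 2 h, and 1, 5 and 8 were lower between 100 and 1 µg/ml at 24, 48 and 72 h. The epithelial markers, the untested Foxj1 included, summed to 529 to 628 CPM untreated and 93.3 to 129 CPM at 72 h. Of the 10 fibroblast markers, 6 were lower and 0 higher at 100 than at 1 µg/ml at 24 h. At 48 h it was 5 lower and 0 higher, and at 72 h 1 lower and 2 higher, with sums of 9460 to 10088 CPM at 1 µg/ml and 10174 to 11379 CPM at 100 µg/ml. Endothelial markers summed to 64.5 to 69.1 CPM at 1 µg/ml and 46.1 to 48.3 CPM at 100 µg/ml at 24 h, and at 72 h to 86.7 to 117 CPM and 60.8 to 72.7 CPM. Mesothelial markers summed to 426 to 493 CPM at 1 µg/ml and 297 to 362 CPM at 100 µg/ml at 48 h, and at 72 h to 497 to 563 CPM and 325 to 373 CPM. Smooth muscle and pericyte markers were the other way at 24 h, with 654 to 775 CPM at 1 µg/ml and 1030 to 1044 CPM at 100 µg/ml. At 72 h they summed to 1066 to 1737 CPM and 813 to 889.5 CPM. Over the 39 libraries Acta2 held 102768 counts and the next gene of this list, Des, 3930. These sums thus mostly follow Acta2 and do not show a shift of the whole list. No gene of these 3 lists was at 0 in a whole group. The part of proliferation and of other cell types in the lipid gene differences was not tested.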

How the data were processed

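Poly(A) RNA was sequenced from its 5′ end (NovaSeq, per the labels' protocols). The submitters' processing notes name cutadapt 2.1.0, Bowtie2 2.4.2 and the build GRCm38. Not given in the sources used here are the counting tool, the annotation and how strand, multiply matching reads and molecular identifiers were handled. The values are raw counts per gene, deposited by the authors as 1 table of 39 columns, all of which were used. Of these, 9 columns carry another spelling of the experiment's name and were matched to samples by serial number.

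The test was the quasi-likelihood test of edgeR 4.0.16 under R 4.3.3. A single fit held all 39 libraries with a mean per group, TMM scaling, the default filter (14419 genes, holding 99.4% of counts) and a Benjamini-Hochberg threshold of 0.05. Log2 values per library for the likeness measure used a prior count of 2. The 24 comparisons were each of 12 groups against untreated, 100 and 10 against 1 µg/ml at each of 4 times, 3 pairs of neighbouring times over doses, and the interaction. The dose difference was also compared directly between 4 pairs of times. The members and gene lists were chosen with earlier results of these data known. The naming rule covered all 32 members and, of other lists, up to 4 called genes with a mean log2 CPM of at least 3, largest difference first. For likeness it took the 10 highest and 10 lowest Pearson correlations, of which 1 gene at each end is not reported here.

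Alternatives were DESeq2 1.42.0, RLE scaling, no filter, only the groups compared, an adjusted p under 0.01, no LOC118568312, 100 µg/ml against the mean of the lower doses, each library left out and, added after seeing the data, 1 header spelling. Replicate counts were compared by chi-square, and none looked like a library deposited again. Tested on simulated counts of the 100 against 1 µg/ml comparison at 24 h (14089 genes), the fit called 43.3%, 83.6% and 98.5% of genes changed 1.5-, 2- and 4-fold, with 8 false calls. Promoters are from RefSeq (GRCm38.p6), matched by symbol, and figures were drawn with matplotlib 3.10.9.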

Additional observations from a re-analysis of the deposited data

Results flagged for a closer look

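The difference between 100 and 1 µg/ml was not the same at 2, 24, 48 and 72 h for 13 of the 32 genes, by a joint test of the interaction of dose and time in edgeR's quasi-likelihood fit with Benjamini-Hochberg adjustment over 14419 genes. The adjusted p was 4.05e-07 for Stard4, 9.35e-07 for Mvd, 3.77e-05 for Ebp and 5.38e-05 for Tm7sf2. It was 0.000418 for Elovl6, 0.000538 for Lss, 0.000743 for Fdft1 and 0.00296 for Fdps. For the others it was 0.0103 (Idi1), 0.0107 (Nsdhl), 0.0195 (Acat2), 0.0212 (Insig1) and 0.0225 (Pmvk). In Fdps the difference was -0.71 ± 0.10 at 24 h and -0.61 ± 0.10 at 72 h, and in Acat2 -0.70 ± 0.13 and -0.67 ± 0.14. Pmvk was called at 24 h (-0.42 ± 0.12) and at no other time, and not there without the first of 1 µg/ml (-0.39) or the third of 100 µg/ml (-0.35). The interaction was not called for Acat2 without the third of 1 µg/ml (adjusted p = 0.0973) or the first of 100 µg/ml (0.121) at 2 h. For Pmvk it was not called without the third of 1 µg/ml (0.107) or the first (0.0924) or second (0.0810) of 100 µg/ml at 2 h. For Insig1 it was not called without the second of 1 µg/ml (0.0600) at 72 h, or without the first of 100 µg/ml then (0.0507). Macrophage and myeloid markers summed to 1473 to 1574 CPM at 1 µg/ml and 1084 to 1320 CPM at 100 µg/ml at 72 h, where the dose differences of Stard4 and Lss were largest in size, and their part was not tested. Lyz2 held the most counts of these markers.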

How the results depend on the processing

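No paired analysis was possible because the labels give the libraries serial numbers and no replicate numbers shared between groups. Over 429 results for single genes (all calls and 6 uncalled differences), 6535 values were recomputed under the alternatives. None changed sign, 6192 kept their side of the threshold, 340 lost the call and 3, all of Stard4, gained it. The counts of genes called against untreated cells at 24, 48 and 72 h, between neighbouring times and between 100 and 1 µg/ml at 72 h stayed within 1.5 times of those reported. With each library left out in turn they ran from 27 to 32, from 10 to 30 and from 12 to 14. With an adjusted p under 0.01 the counts fell to 2 and 0 at 10 and 100 µg/ml against untreated at 2 h, to 11 and 7 between 100 and 1 µg/ml at 24 and 48 h, and to 8 for the interaction, as a stricter threshold must give fewer. At 100 µg/ml and 2 h the count was 1 with no filter and 4 with only the groups compared. Between 100 and 1 µg/ml at 2 h it was 2 with DESeq2, without the abundant transcript LOC118568312, and against the mean of 1 and 10 µg/ml. At 24 h it was 10 with only the groups compared. With the columns of 1 header spelling, chosen after seeing the data, it was 7 at 24 h and 5 at 48 h, with fewer libraries. With each library left out, the counts ran from 2 to 4 and from 0 to 2 at 10 and 100 µg/ml against untreated at 2 h. They ran from 14 to 19 and from 8 to 12 between 100 and 1 µg/ml at 24 and 48 h, and from 11 to 13 for the interaction. For the direct contrasts of the dose difference between times, chosen after earlier results were seen, the count between 24 and 2 h was 4 with 1 header spelling and 6 to 10 with each library left out. Between 48 and 24 h it was 0 with an adjusted p under 0.01, with no filter, with only the groups compared and with 1 header spelling, and 0 to 2 with each library left out. Between 72 and 24 h it was 1 with only the groups compared or 1 header spelling, and 2 to 3 with each library left out, and between 72 and 48 h 0 in all. Where no fewer genes or libraries were used, the cause was not tested. In simulated counts of the 24 h dose comparison, 43.3% of genes changed 1.5-fold were called. Those genes were drawn from all tested genes, low counts included. The share of such differences missed among the 32 genes was therefore not measured. Their median standard error in that comparison was 0.11.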
